A study of Homo sapiens with 7 samples.

Results

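Clade B serpins are serine and cysteine protease inhibitors, and 10 of them (SERPINB1, SERPINB2, SERPINB3, SERPINB4, SERPINB5, SERPINB6, SERPINB7, SERPINB8, SERPINB9 and SERPINB13) were described across 7 RNA-Seq libraries of esophageal squamous carcinoma cells. The members were taken by name, and each gene's level was the sum over its annotated transcripts, which gave 10 genes of 56236 with a transcript in the files. TE5 cells carried a non-targeting scramble shRNA or an shRNA against TP63, SOX2 or CCAT1 (4 libraries), and KYSE140 cells carried the scramble shRNA or an shRNA against TP63 or SOX2 (3 libraries). TE5 and KYSE140 are both established lines, grown in the same medium, and the shRNAs were delivered in a lentiviral vector. Each group held 1 library, so a difference between 2 libraries had no replicate behind it. The labels also carry a run string that differs between the scramble library and the knockdown libraries of each line, and that difference cannot be told apart from the silencing.

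A serpin presents a flexible loop that a protease cuts as if it were a substrate, and the serpin then changes shape and traps the protease. Most clade B serpins lack a classical secretion signal and act inside the cell, where they shield it from its own proteases or from those of immune cells. In squamous epithelium several of them accompany keratinocyte differentiation, and SERPINB3 and SERPINB4 are known as the squamous cell carcinoma antigens. TP63 is the master transcription factor of squamous epithelium, SOX2 acts with it in squamous carcinoma, and CCAT1 is a long non-coding RNA, so the comparisons asked how the serpin levels stood when each of the 3 was silenced.

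The members lie in 2 gene clusters. SERPINB1 (chr6:2832566-2842193), SERPINB9 (chr6:2887504-2903543) and SERPINB6 (chr6:2948393-2972399) lie at 6p25 on the minus strand of hg19. The other 7 lie at 18q21.3, in the order SERPINB5 (chr18:61144191-61172318), SERPINB13 (chr18:61254223-61271873), SERPINB4 (chr18:61304493-61311490), SERPINB3 (chr18:61322431-61329127), SERPINB7 (chr18:61420169-61472610), SERPINB2 (chr18:61538926-61571122) and SERPINB8 (chr18:61637263-61687013). SERPINB4 and SERPINB3 are on the minus strand there and the others on the plus strand. SERPINB3 overlaps SERPINB11 on the other strand and SERPINB8 overlaps HMSD on its own strand. The sources used here do not say whether the counting used strand. SERPINB11 held at most 13.1 estimated counts in any library.

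SERPINB3 and SERPINB4 are near-identical copies, which matters for every value of the pair. Their coding sequences, each 1173 bases long, differed at 56 bases (95.2% identity) and held an identical run of 129 bases. Of the 1143 words of 31 bases in the SERPINB3 coding sequence, 465 (40.7%) also occurred in SERPINB4. The stretch of 150 coding bases with the most differences, bases 942 to 1091 counted from the start codon, held 20 of the 56. It is shown from the reference transcripts (hg19, minus strand, chr18:61322973-61323122 for SERPINB3 and chr18:61305035-61305184 for SERPINB4) because reads that fall here can be told apart, and capitals mark the bases that differ.
SERPINB3: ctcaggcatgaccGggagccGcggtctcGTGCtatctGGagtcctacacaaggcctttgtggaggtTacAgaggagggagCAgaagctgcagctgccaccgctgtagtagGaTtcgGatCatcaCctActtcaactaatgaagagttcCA
SERPINB4: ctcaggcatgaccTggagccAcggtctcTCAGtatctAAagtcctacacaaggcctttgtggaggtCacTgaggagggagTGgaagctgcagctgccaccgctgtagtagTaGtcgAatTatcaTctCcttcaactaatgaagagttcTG

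The likeness reached beyond the coding part. The 250 bases before the RefSeq start (GRCh38.p14, minus strand, chr18:63661894-63662143 for SERPINB3 and chr18:63644257-63644506 for SERPINB4) differed at 3 bases, again in capitals.
SERPINB3: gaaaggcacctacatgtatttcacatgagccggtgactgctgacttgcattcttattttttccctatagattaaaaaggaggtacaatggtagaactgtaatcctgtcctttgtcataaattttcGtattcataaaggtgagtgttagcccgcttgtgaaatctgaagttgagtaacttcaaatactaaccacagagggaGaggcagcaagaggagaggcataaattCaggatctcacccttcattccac
SERPINB4: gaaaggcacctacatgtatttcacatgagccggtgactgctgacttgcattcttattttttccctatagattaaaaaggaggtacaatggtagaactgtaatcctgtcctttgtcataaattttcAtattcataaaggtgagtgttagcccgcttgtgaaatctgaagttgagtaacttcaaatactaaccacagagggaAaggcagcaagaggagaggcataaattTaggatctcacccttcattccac

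The promoters of the members differed in CG content along the 2 clusters. The ratio of observed to chance CG pairs in the 250 bases before the start was 0.83 for SERPINB1 and 0.78 for SERPINB9, against a median of 0.56 over 35116 promoter windows in RefSeq. It ran from 0.22 to 1.02 over the 4 starts of SERPINB6. It was 0.59 for SERPINB5, 0.47 for SERPINB8, 0.33 for SERPINB13, 0.29 for SERPINB3 and 0.20 for SERPINB4. No CG at all stood before the SERPINB2 start or before starts 2 and 3 of SERPINB7, whose start 1 had a ratio of 0.06. Sequences of SERPINB1 (minus strand, chr6:2841864-2842113), SERPINB5 (plus strand, chr18:63476708-63476957) and SERPINB13 (plus strand, chr18:63587093-63587342) are shown with each CG in capitals (GRCh38.p14), since the line comparison described below had its lowest value at SERPINB1 and its value nearest 0 at SERPINB5, and SERPINB13 differed between the lines upon TP63 silencing.
SERPINB1: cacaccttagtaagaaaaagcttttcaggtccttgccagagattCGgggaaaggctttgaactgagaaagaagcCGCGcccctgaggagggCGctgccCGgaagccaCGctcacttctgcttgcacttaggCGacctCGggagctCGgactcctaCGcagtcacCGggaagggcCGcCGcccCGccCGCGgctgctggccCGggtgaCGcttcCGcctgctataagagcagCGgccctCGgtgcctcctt
SERPINB5: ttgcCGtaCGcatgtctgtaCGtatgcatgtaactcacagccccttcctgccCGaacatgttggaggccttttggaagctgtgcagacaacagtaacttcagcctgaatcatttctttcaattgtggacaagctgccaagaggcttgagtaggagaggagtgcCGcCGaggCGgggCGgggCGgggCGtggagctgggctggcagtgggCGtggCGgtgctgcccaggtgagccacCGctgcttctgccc
SERPINB13: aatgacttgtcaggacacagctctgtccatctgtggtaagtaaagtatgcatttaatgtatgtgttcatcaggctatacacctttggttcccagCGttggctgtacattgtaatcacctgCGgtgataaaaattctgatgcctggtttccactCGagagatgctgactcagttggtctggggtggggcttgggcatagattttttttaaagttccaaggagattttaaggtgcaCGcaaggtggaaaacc

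A SOX core (ATTGT on either strand) was found in 6 of the 15 windows of the members (40%), 1 each of SERPINB3, SERPINB4, SERPINB5, SERPINB7, SERPINB8 and SERPINB13, against 24.6% of all windows. The SERPINB3 and SERPINB4 windows differ at 3 bases and were counted separately. In the order named, the matched windows held 40.8, 39.6, 60.0, 36.8, 49.2 and 44.4% G and C bases, beside a median of 58.0% over all windows. The part of this base content in the matches was not tested. A p53-family core pair (CATGNNNNNNCATG) was found in 0 of the 15 windows of the members, against 0.3% of all windows, and a wider form that allowed other cores, searched first, was found in 0 of the 15 and in 4.0% of all. A match describes the letters of the window and not binding, and no match says only that these letters are not in it.

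The libraries held 68532611 to 98036494 estimated counts, of which 6.31 to 6.55% lay on transcripts that could not be assigned to a gene and were left out. TP63 stood at 25.4% of its scramble level in TE5 and 26.1% in KYSE140 in the libraries that target it. SOX2 stood at 39.6% in TE5 and at 77.1% in KYSE140. CCAT1, read from the single transcript ENST00000500112 that the annotation files under CASC19, stood at 30.6% in TE5. Of 18 squamous epithelial markers, 12 to 14 reached 1 TPM in each library, and their summed level was 1250 to 2120 TPM in TE5 and 9480 to 20200 TPM in KYSE140. CRNN was at or near 0 in TE5, and KRT14 was below 1 TPM in every TE5 library. Of 8 leukocyte markers, CD68 led, ITGAM stood at 3.39 to 5.36 TPM in TE5, and PTPRC and LYZ stayed below 1 TPM there. Their summed level was 53.9 to 123 TPM in TE5 and 4.93 to 16.2 TPM in KYSE140 over all 8. The 8 fibroblast markers summed to 13.7 to 27.5 TPM in TE5 and 55.4 to 71.4 TPM in KYSE140, and 5 endothelial markers to 1.14 to 9.64 TPM. The part of these markers in the serpin levels was not tested.

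SERPINB5 and SERPINB6 were the most abundant members in TE5, and SERPINB5 alone led in KYSE140. TPM, the deposited abundance corrected for transcript length, allows the members to be ordered within a library. In the TE5 scramble library SERPINB6, which inhibits cathepsin G, came highest at 92.9 TPM. It was followed by SERPINB5 at 71.3 TPM, SERPINB1 at 23.2 TPM, SERPINB13 at 11.0 TPM, SERPINB8 at 10.0 TPM, SERPINB9 at 3.71 TPM and SERPINB7 at 1.52 TPM. SERPINB2, SERPINB4 and SERPINB3 closed the order at 0.407, 0.381 and 0.294 TPM. SERPINB6 and SERPINB5 overlapped over the 4 TE5 libraries (87.1 to 103 TPM against 67.0 to 111 TPM), and so did SERPINB13 and SERPINB8 (2.49 to 11.5 TPM against 10.0 to 15.4 TPM). SERPINB9 (3.38 to 5.06 TPM) lay within the range of SERPINB13, and SERPINB7 (0.938 to 3.52 TPM) overlapped SERPINB9, SERPINB13 and SERPINB4. SERPINB4 (0.208 to 3.2 TPM) overlapped SERPINB13, SERPINB2 and SERPINB3 as well, and SERPINB2 overlapped SERPINB3. The order of members that overlap cannot be told apart from the spread between libraries.

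In the KYSE140 scramble library the order began with SERPINB5 at 70.1 TPM, followed by SERPINB13 at 8.56 TPM, SERPINB8 at 1.76 TPM and SERPINB6 at 1.56 TPM. SERPINB2 stood at 0.521 TPM and SERPINB9 at 0.454 TPM. SERPINB3, SERPINB1 and SERPINB7 were at 0.0658, 0.0456 and 0.0166 TPM, and SERPINB4 was at 0. Over the 3 KYSE140 libraries SERPINB2 (0.521 to 2.45 TPM) overlapped SERPINB8, SERPINB6 and SERPINB9, and SERPINB1, SERPINB3 and SERPINB7 overlapped each other. SERPINB5 therefore made up 84.4% of the summed TPM of the 10 members in KYSE140 scramble cells and 33.2% in TE5 scramble cells. The 6p25 members made up 55.8% of that sum in TE5 scramble cells and 2.48% in KYSE140 scramble cells, and 52.2 to 60.0% and 1.40 to 2.51% over all libraries of each line. Unassigned transcripts that stand beside SERPINB1 and SERPINB6 are not in these sums, and with them the 6p25 share in TE5 would be larger.

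**Figure D1:**
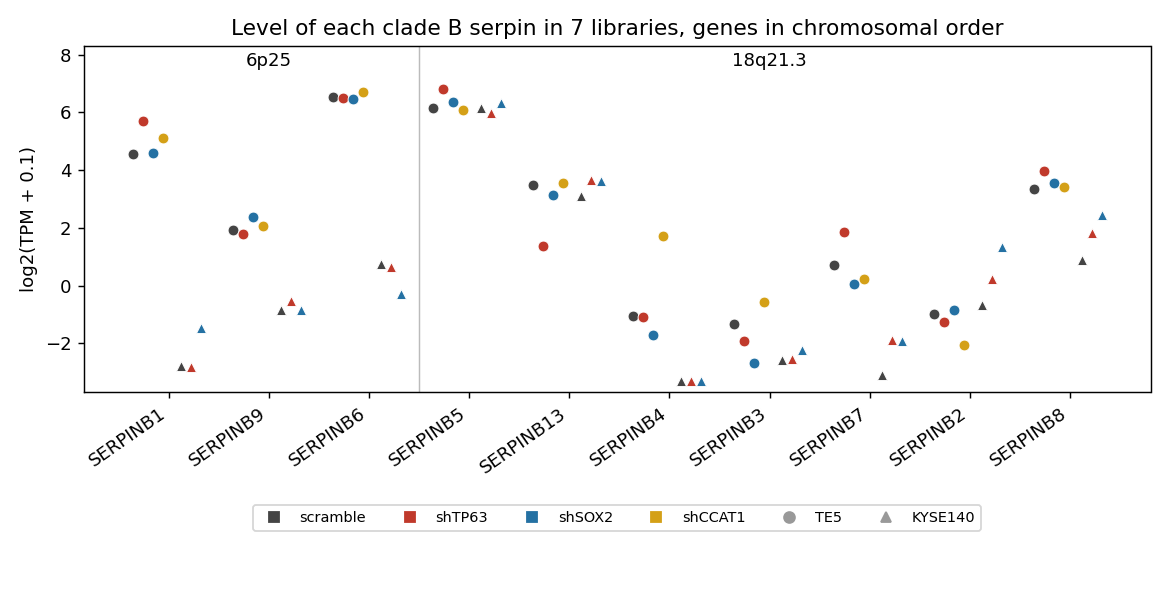
The plot shows log2(TPM + 0.1) of each member in each of the 7 libraries, with TE5 as circles, KYSE140 as triangles, and the shRNA by colour. SERPINB5 was at a like level in both lines (67.0 to 111 TPM in TE5 and 63.1 to 80.1 TPM in KYSE140), while the TE5 and KYSE140 symbols of the 3 genes at 6p25 stand far apart.

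Between the lines, 6 members were lower in KYSE140 than in TE5 and 1 was higher. The test was the cell line term of edgeR's quasi-likelihood fit, which left out the CCAT1 library and so held 3 libraries a line (2 residual degrees of freedom), with an adjusted p under 0.1 over all 23438 genes tested. The lines differed at so many genes (34.3% lower and 31.8% higher in KYSE140) that 6 and 1 of 10 must be read against those shares. The median log2 fold change was -2.29 over the members and -0.07 over all genes tested. The 3 libraries of a line are 1 cell line under 3 shRNAs, so the test concerned these lines and not squamous carcinoma lines in general.

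All 3 members of the 6p25 cluster were lower in KYSE140. SERPINB1, an inhibitor of neutrophil elastase and cathepsin G, had 2027.0, 3711.7 and 2036.0 normalized counts in the TE5 scramble, TP63 and SOX2 libraries and 7.2, 6.2 and 16.6 in those of KYSE140. The groups did not overlap, and the log2 fold change was -8.01 ± 0.40 (SE; edgeR adjusted p 7.53e-06). SERPINB6 had 6443.6, 5825.3 and 6269.3 normalized counts in TE5 and 125.8, 115.5 and 65.1 in KYSE140, a log2 fold change of -5.95 ± 0.24 (SE; edgeR adjusted p 3.46e-06). SERPINB9, which blocks granzyme B and so protects cells that use or meet it, had 836.5, 684.1 and 1158.0 normalized counts in TE5 and 115.7, 146.5 and 130.4 in KYSE140, a log2 fold change of -2.74 ± 0.24 (SE; edgeR adjusted p 8.47e-05).

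The genes around the 6p25 serpins were not low in KYSE140 as a group. Of 10 neighbours tested in the same edgeR fit, 6 were higher in KYSE140 and 2 lower, with a median log2 fold change of 0.72. Of all genes tested, 31.8% were higher and 34.3% lower. TUBB2B, a beta tubulin, had a log2 fold change of 5.32 (edgeR adjusted p 5.81e-06) and SLC22A23 one of 1.64 (edgeR adjusted p 0.000177). TUBB2A, GMDS, NQO2 and BPHL were also higher. The lower neighbours were PSMG4, with a log2 fold change of -0.58 (edgeR adjusted p 0.0239), and RIPK1, with one of -0.42 (edgeR adjusted p 0.0453). Of the 8 neighbours tested at 18q21.3, 3 were higher and 5 lower in KYSE140, with a median of -0.48.

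At 18q21.3 the members split. SERPINB7, a keratinocyte serpin whose loss causes a palmoplantar keratosis, had 121.6, 255.3 and 97.9 normalized counts in TE5 and 1.4, 15.6 and 17.1 in KYSE140, and its log2 fold change was -3.84 ± 0.59 (SE; edgeR adjusted p 0.00112). SERPINB8, known as an inhibitor of furin, had 1077.6, 934.2 and 1210.7 normalized counts in TE5 and 163.4, 269.9 and 568.8 in KYSE140, with a log2 fold change of -1.85 ± 0.30 (SE; edgeR adjusted p 0.0016). SERPINB4 was at 0 in all KYSE140 libraries and at a mean of 17.3 ± 8.3 normalized counts (SD, n = 3) in TE5. Set against a floor of 3 counts over the KYSE140 libraries as a group, it was at least 14.5-fold lower there, and it passed the edgeR test (adjusted p 0.00757). Summed with SERPINB3, normalized counts were 52.0, 20.1 and 23.8 in the TE5 scramble, TP63 and SOX2 libraries. In KYSE140 the sums were 6.8, 7.3 and 13.4, all from SERPINB3. Whether the split of shared reads within the pair set the 0 of SERPINB4 was not tested. The median over the members does not depend on the size of the fitted SERPINB4 value, but it does count SERPINB4 among the low members.

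SERPINB2, plasminogen activator inhibitor-2, was the member higher in KYSE140. It had 40.5, 27.9 and 28.7 normalized counts in TE5 and 58.6, 114.3 and 300.8 in KYSE140, with a log2 fold change of 2.00 ± 0.54 (SE; edgeR adjusted p 0.0155), and without the SOX2 libraries the change was 1.29 (edgeR adjusted p 0.0738). SERPINB5, maspin, a serpin that does not act as a classical protease inhibitor, had 10495.5, 14705.5 and 12152.7 normalized counts in TE5 and 11437.0, 10313.2 and 14948.5 in KYSE140. The groups overlapped, and the log2 fold change was -0.03 ± 0.17 (SE; edgeR adjusted p 0.899). SERPINB13, which inhibits cathepsins K and L, had a log2 fold change of 0.92 ± 0.45 (SE; edgeR adjusted p 0.116) and SERPINB3, another cathepsin inhibitor, one of -0.48 ± 0.79 (SE; edgeR adjusted p 0.626). The SERPINB13 value moved with the TP63 libraries: it was 0.20 without them (edgeR adjusted p 0.48), and 1.5 without the scramble libraries (edgeR adjusted p 0.0479).

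**Figure D2:**
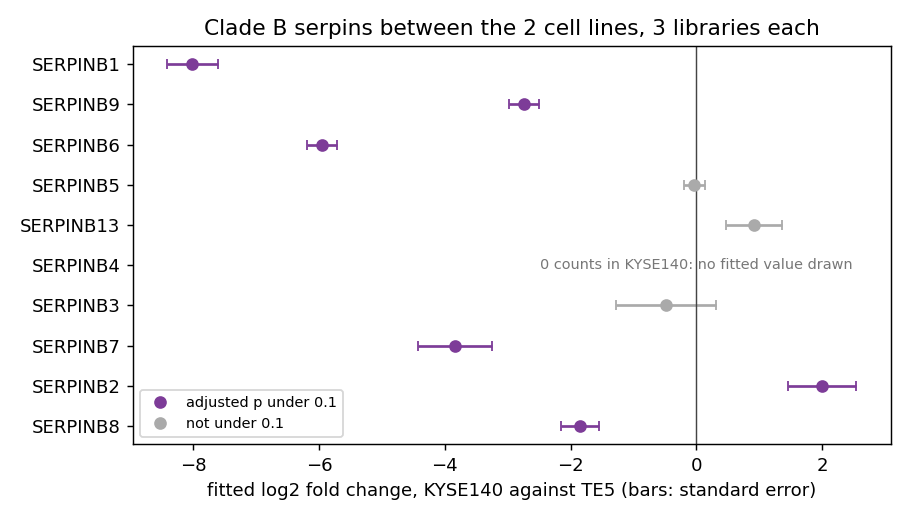
The plot shows the fitted log2 fold change of each member between KYSE140 and TE5 (x axis, bars are standard errors, 3 libraries per line). The 3 members at 6p25 lie at -8.01, -2.74 and -5.95, SERPINB5 lies at -0.03, and SERPINB4 has no point because it had 0 counts in KYSE140.

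The transcripts behind the counts differed between the lines for SERPINB6. In TE5 scramble cells ENST00000380529 held 45.4% of the SERPINB6 counts and ENST00000380546 held 17.9%. In KYSE140 scramble cells ENST00000380529 was at 0 and ENST00000380546 held 70.3% of 92.4 estimated counts. The transcripts share most of their sequence, so these shares are estimates of the counting program. SERPINB5 came from 1 transcript in every library, with 99.3 to 99.7% of its counts on ENST00000382771. SERPINB9 has 1 transcript in the files.

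Upon TP63 silencing in TE5, SERPINB13, SERPINB4 and SERPINB3 were lower and SERPINB7 was higher than in scramble cells by more than 2-fold. The log2 fold change compared normalized counts after 1 was added to each, was taken only where either library held 10 counts or more, and was called past -1 or 1. Over all genes with a value, 5.61% were lower and 14.8% higher past that limit, beside 3 and 1 of the 10 members. The median was -0.25 over the members and 0.06 over all genes. With 1 library per group there is no test, and the 95% intervals given (exact binomial on the counts) cover counting error only.

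SERPINB13 went from 1338.8 normalized counts in scramble cells to 272.3 upon TP63 silencing, a log2 fold change of -2.29 (interval -2.47 to -2.13). In the other TE5 libraries it was at 1132.6 (SOX2) and 1277.3 (CCAT1), so the TP63 library was the low one of the 4. The main coding transcript ENST00000344731 went from 763.2 to 256.5 estimated counts, and a transcript marked for nonsense-mediated decay, ENST00000438844, from 278.6 to 51.6. SERPINB7 went from 121.6 to 255.3 normalized counts, a log2 fold change of 1.06 (interval 0.76 to 1.39), and the TP63 library was the highest of the 4 for it. SERPINB1 went from 2027.0 to 3711.7 normalized counts, short of the limit at 0.87 (interval 0.80 to 0.95).

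SERPINB3 and SERPINB4 were near the limit of detection in TE5. SERPINB3 went from 26 to 15.1 estimated counts (log2 fold change -1.14, interval -2.24 to -0.24) and SERPINB4 from 24 to 10.9 (-1.46, interval -2.72 to -0.46). Summed over the pair, which removes the question of how shared reads were split between them, normalized counts went from 52.0 to 20.1, a log2 fold change of -1.33. On the deposited TPM the SERPINB4 value was -0.05 instead, since 8.3 of its 10.9 counts upon TP63 silencing sat on ENST00000498496, a retained-intron transcript of 559 bases. The coding transcript ENST00000341074 went from 21.1 counts to 0.

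Squamous markers went both ways in the same library, with a median of -0.31 beside 0.06 over all genes. Of 15 with a value 4 were lower past the limit: TP63 itself, KRT5 (-1.80), KRT6A (-2.65) and KRT4 (-1.70, on 19.4 and 7.1 counts). The 1 higher past the limit was S100A9 (1.12), and TGM1 (0.60) and IVL (0.49) were higher within it. Of 5 fibroblast markers 3 were higher and 0 lower. The part of these markers in the serpin levels was not tested.

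The remaining members lay within 2-fold of scramble. SERPINB5 went from 10495.5 to 14705.5 normalized counts (log2 fold change 0.49) and SERPINB2 from 40.5 to 27.9 (-0.52, interval -1.23 to 0.15). SERPINB6, SERPINB8 and SERPINB9 lay at -0.15, -0.21 and -0.29. SERPINB8 had the opposite sign on TPM (0.62). Its longest transcript, ENST00000397985, went from 400.0 to 295.0 counts while the shorter ENST00000542677 went from 79.3 to 175.0 (1.251 to 2.296 TPM). The largest rise in TPM was on ENST00000493661, of 296 bases, from 0.425 to 3.208 TPM on 3.0 and 27.0 counts.

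Upon TP63 silencing in KYSE140, SERPINB7 was the member past the limit and it was higher, with 1 count in the scramble library and 17 in the TP63 library. Its log2 fold change of 2.81 had an interval from 0.84 to 8.90. Over all genes with a value 8.94% were higher and 4.28% lower, beside 1 and 0 of the 7 members with enough counts (SERPINB1, SERPINB3 and SERPINB4 had too few). The median was 0.36 over these members and 0.05 over all genes.

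SERPINB13 did not have in KYSE140 the change it had in TE5. It went from 1160.4 to 1484.7 normalized counts, a log2 fold change of 0.36 (interval 0.23 to 0.48), beside -2.29 in TE5. With protein-coding transcripts only, the KYSE140 value was 0.09. TP63 itself stood at like shares of scramble in the 2 lines (25.4% and 26.1%). SERPINB8 went from 163.4 to 269.9 normalized counts (0.72, interval 0.41 to 1.04) and SERPINB2 from 58.6 to 114.3 (0.95, interval 0.45 to 1.5). SERPINB5 (-0.15), SERPINB6 (-0.12) and SERPINB9 (0.34) lay closer to 0. Of 14 squamous markers with a value 3 were lower past the limit, TP63 itself among them with KRT14 (-1.69) and KRT13 (-2.1), and 0 higher. Of 5 fibroblast markers 0 passed the limit.

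The difference between the lines was tested with 1 line-by-shRNA term added to the edgeR fit, a test added after the values were seen. It leaves 1 residual degree of freedom, takes its spread from the 4 libraries without the shRNA in question and assumes that the other shRNA acts alike in both lines. For TP63 silencing, 1 of the 10 members passed, beside 2.62% of the 25612 genes tested. That member was SERPINB13, whose effect was higher in KYSE140 than in TE5 by 2.21 ± 0.38 on the log2 scale (SE; edgeR adjusted p 5.68e-05). SERPINB1 and SERPINB5 also had an unadjusted p under 0.05, beside 1307 genes lower and 1149 higher of the 25612. The SERPINB5 effect was lower in KYSE140, at -0.75 ± 0.26 (SE; edgeR adjusted p 0.147). For SOX2 silencing, described next, 0 of the 10 members passed, beside 0.0586% of all genes. An unadjusted p under 0.05 was reached by 5 members (SERPINB1, SERPINB2, SERPINB6, SERPINB7 and SERPINB8), beside 625 genes lower and 810 higher of the 25612.

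**Figure D3:**
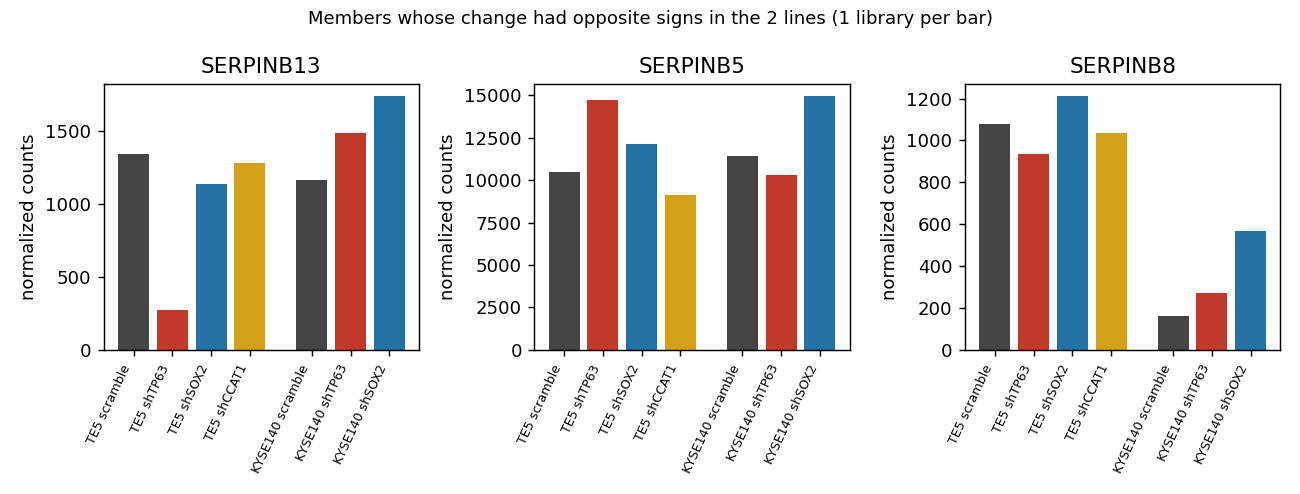
The bars show normalized counts of SERPINB13, SERPINB5 and SERPINB8 in each library, 1 library per bar, with the axis from 0. SERPINB13 is at 272.3 in the TE5 TP63 library and at 1484.7 in the KYSE140 TP63 library, and the KYSE140 bars of SERPINB8 range from 163.4 to 568.8.

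Upon SOX2 silencing in TE5, SERPINB3 alone passed the limit, from 26 to 5 estimated counts (log2 fold change -2.19, interval -4.13 to -0.99). SERPINB4 went from 24 to 18 (-0.41, interval -1.40 to 0.52), and the summed pair had a log2 fold change of -1.10. Over all genes with a value 4.95% were lower and 6.31% higher, beside 1 and 0 of the 10 members, and the median was -0.14 over the members and -0.01 over all genes. SERPINB9 had the largest change upward, from 836.5 to 1158.0 normalized counts (0.47, interval 0.34 to 0.60). SERPINB1 (0.01), SERPINB6 (-0.04), SERPINB8 (0.17), SERPINB5 (0.21), SERPINB13 (-0.24), SERPINB7 (-0.31) and SERPINB2 (-0.48) lay within 2-fold of scramble too. Of 15 squamous markers with a value 4 were lower past the limit and 1 higher, and of 5 fibroblast markers 4 were higher and 0 lower.

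Upon SOX2 silencing in KYSE140, 4 of the 9 members with a value were higher by more than 2-fold and none was lower. Over all genes 7.0% were higher and 6.26% lower, and the median was 0.88 over the members against 0.06 over all genes. SERPINB2 went from 58.6 to 300.8 normalized counts, a log2 fold change of 2.34 (interval 1.89 to 2.86), and SERPINB8 from 163.4 to 568.8 (1.79, interval 1.51 to 2.10). SERPINB7 went from 1 to 14 estimated counts (2.93, interval 0.93 to 9.05). The SERPINB1 value, 1.10 from 5.3 and 13.6 estimated counts, had an interval from -0.23 to 3.15 and so was not distinguishable from no change at this depth. It was 0.42 with protein-coding transcripts only, which is short of the limit, and 1.77 with an unassigned transcript that stands beside those of SERPINB1 added.

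The other members in that comparison ran from -0.94 to 0.88. SERPINB6 went from 125.8 to 65.1 normalized counts (-0.94, interval -1.47 to -0.45). SERPINB13 went from 1160.4 to 1734.3 (0.58), SERPINB5 from 11437.0 to 14948.5 (0.39) and SERPINB9 from 115.7 to 130.4 (0.17), and SERPINB3 was at 0.88 on 5 and 11 estimated counts. Squamous markers were higher in the same library: 10 of the 17 with a value were higher past the limit and 0 lower, with a median of 1.26. Their part in the serpin levels was not tested. SOX2 was at 77.1% of scramble in that library, the highest share among the 5 knockdown libraries.

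Upon CCAT1 silencing in TE5, SERPINB4 was higher and SERPINB2 lower. SERPINB4 went from 24 to 146.1 estimated counts (log2 fold change 2.17, interval 1.58 to 2.90) and SERPINB3 from 26 to 58.9 (0.77, interval 0.10 to 1.52). The CCAT1 library was the highest of the 4 TE5 libraries for both, and the summed pair went from 52.0 to 162.5 normalized counts (1.63). Of the 146.1 SERPINB4 counts, 78.7 lay on the coding transcript ENST00000341074 and 54.5 on the retained-intron transcript ENST00000498496, and with coding transcripts only the SERPINB4 log2 fold change was 1.68. SERPINB2 went from 39 to 16.6 counts (-1.55, interval -2.50 to -0.73).

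The other members lay close to scramble in that library. SERPINB1 was at 0.48 (interval 0.40 to 0.56), SERPINB7 at -0.30, SERPINB5 at -0.20, SERPINB6 at 0.07, SERPINB13 at -0.07, SERPINB8 at -0.06 and SERPINB9 at 0.03. Over all genes with a value 11.9% were higher and 6.05% lower, beside 1 and 1 of the 10 members, and the median was -0.02 over the members and 0.02 over all genes. CCAT1 was not silenced in a KYSE140 library analysed here, so this comparison has no counterpart. Of 15 squamous markers with a value 4 were lower past the limit in that library and 0 higher, and of 4 fibroblast markers 1 was higher and 1 lower.

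**Figure D4:**
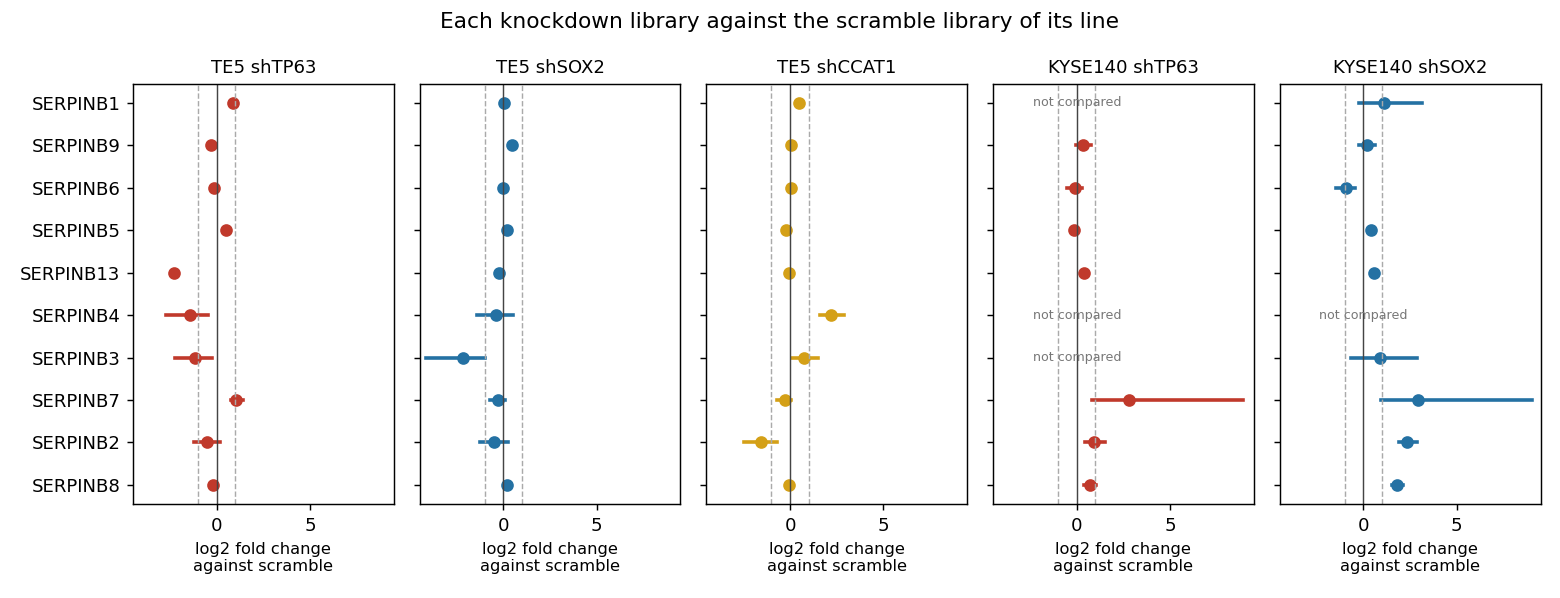
The panels show the log2 fold change of each member in each knockdown library against the scramble library of its line, with 95% intervals for counting error and dashed lines at -1 and 1. The long bars of SERPINB7 in KYSE140 come from 1 count in the scramble library, and SERPINB13 lies past -1 in the TE5 TP63 panel and above 0 in both KYSE140 panels.

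When the lines were combined in the edgeR fit, no member passed an adjusted p of 0.1 for TP63 or SOX2 silencing. For TP63 the adjusted p of the members ran from 0.397 to 0.973. Of all genes tested, 0.742% passed as lower and 0.196% as higher. No member had an unadjusted p under 0.05, beside 1918 genes lower and 1448 higher of the 23438 tested. SERPINB7 had the largest change upward among the members, a log2 fold change of 1.39 ± 0.66 (SE; edgeR adjusted p 0.397). Its pair values were 1.06 in TE5 and 2.81 in KYSE140, the latter against 1 count in the scramble library. SERPINB13 had -0.87 ± 0.55 (SE; edgeR adjusted p 0.521), a mean over opposite signs. For SOX2 the adjusted p ran from 0.527 to 0.985, and 0.124% of all genes passed as lower and 0.0213% as higher. The 1 member with an unadjusted p under 0.05 was SERPINB8, beside 1196 genes lower and 899 higher of the 23438. SERPINB8 had a log2 fold change of 0.92 ± 0.37 (SE; edgeR adjusted p 0.527). Its pair values were unequal, at 0.17 in TE5 and 1.79 in KYSE140. DESeq2 gave an adjusted p to 8 members and called 0 of them for either shRNA. Of the 15553 genes to which it gave an adjusted p, DESeq2 called 1265 lower and 472 higher upon TP63 silencing. Upon SOX2 silencing it called 419 lower and 205 higher of 15553. SERPINB8 was again the member with an unadjusted p under 0.05 upon SOX2 silencing. Of the silenced genes themselves, edgeR called TP63 (log2 fold change -1.95, edgeR adjusted p 0.0368) and not SOX2 (-0.88, edgeR adjusted p 0.302), while DESeq2 called both.

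The proteases that clade B serpins are known to inhibit were set beside the members. Of 22 such genes, 16 were tested in the edgeR fit, and 0 passed for either shRNA, with 3 (TP63) and 1 (SOX2) at an unadjusted p under 0.05. DESeq2 gave an adjusted p to 13 of them and called 1 for each shRNA, CTSS upon TP63 silencing and PLAU upon SOX2 silencing. Calls of DESeq2 in these lists must be read against its counts over all genes, given above. PLAU, urokinase, the target of SERPINB2, was past the 2-fold limit upon SOX2 silencing in both lines, from 101 to 208 TPM in TE5 (log2 fold change 1.09) and from 6.70 to 13.8 TPM in KYSE140 (1.11). Its combined log2 fold change was 1.08 with an edgeR adjusted p of 0.248. Between the lines 10 of the 16 proteases were lower in KYSE140 and 3 higher, beside 34.3% lower and 31.8% higher of all genes tested. CTSH, the cysteine protease cathepsin H, was at 411 to 831 TPM in TE5 and at 0.796 to 1.24 TPM in KYSE140 (log2 fold change -8.55, edgeR adjusted p 1.27e-06), and CTSS, cathepsin S, had a log2 fold change of -5.29 (edgeR adjusted p 1.03e-05). The proteases of leukocyte granules named here were below 1 TPM in every library: CTSG, ELANE and GZMB reached at most 0.182 TPM, PRTN3 0.586 TPM and GZMM 0.642 TPM.

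Inhibitors outside clade B were counted in the same way. Of 22 other epithelial protease inhibitors, 20 were tested in the edgeR fit and 0 passed for either shRNA. There 4 (TP63) and 2 (SOX2) had an unadjusted p under 0.05. DESeq2 called 2 of 19 upon TP63 silencing (SPINT1 and TIMP3) and 0 of 19 upon SOX2 silencing. In the comparison of lines 11 were lower and 8 higher in KYSE140 than in TE5, beside 34.3% and 31.8% of all genes tested. WFDC2, a secreted inhibitor of the whey acidic protein family, had a log2 fold change of -9.80 between the lines (edgeR adjusted p 8.79e-07), and TIMP1, a metalloproteinase inhibitor, one of -4.65 (edgeR adjusted p 1.27e-06). Of 21 serpins of other clades, 13 were tested in edgeR and 0 passed for either shRNA. There 4 (TP63) and 3 (SOX2) had an unadjusted p under 0.05. DESeq2 called 2 of 9 upon TP63 silencing (SERPINF1 and SERPINF2) and 1 of 9 upon SOX2 silencing (SERPINH1). Between the lines 6 of the 13 were lower and 3 higher in KYSE140, to be read against the same shares of all genes. SERPINA1, alpha-1 antitrypsin, was past the limit upon TP63 silencing in both lines (1.19 in TE5 and 1.68 in KYSE140), and SERPINA3 upon SOX2 silencing in both (1.47 and 1.68). The 3 other clade B serpins, SERPINB10, SERPINB11 and SERPINB12, reached at most 0.192 TPM in any library.

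SERPINB5 had the highest mean TPM of the members. Among 17025 genes with at least 100 counts in 1 library, the 5 whose log2 normalized counts followed it most closely over the 7 libraries were S100A6 (Pearson r = 0.968), PLEKHG6 (0.962), TMUB2 (0.961), RHOC (0.961) and PPL (0.949), and 14 genes had an r over 0.9. These are correlations over 7 libraries that share 2 lines and their scramble libraries, given as a description. PPL, the desmosomal plakin periplakin, ran from 14194.1 normalized counts in the CCAT1 library to 33226.6 in the TP63 library of TE5, which were also the lowest and highest TE5 libraries for SERPINB5 (9150.6 and 14705.5). PPL was picked for that correlation, so this match is part of it and not a further result.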

How the data were processed

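RNA-Seq of 7 libraries was used, 1 for each line and shRNA. The authors quantified paired-end reads with kallisto against Ensembl transcripts of hg19. Per transcript they deposited an estimated count, not scaled between libraries, and a TPM value, which the authors' tool scales for transcript length and library size. DESeq2 is also named in the submitters' notes. The study's methods give the Ensembl release, and the versions of kallisto and DESeq2 are not given in the sources used here. Here 182863 of 196354 transcripts were assigned to genes with GENCODE 44 mapped to hg19, and the 13491 others were left out. Promoters came from RefSeq (GRCh38.p14), which matched all 10 members. No coordinate was converted between builds.

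Estimated counts were summed per gene, rounded to whole numbers for the fits, and scaled with TMM in edgeR 4.0.16 (R 4.3.3). Pairs of libraries were compared without a test. The joint fit was edgeR's quasi-likelihood test on 6 libraries with cell line as block, filterByExpr and a Benjamini-Hochberg adjusted p under 0.1. It treats the lines as replicates, and nothing states separate cultures, so p-values measure the spread between these libraries, which may be technical. The fit was tested on simulated data. Alternatives changed the scaling, pseudocount (1 to 10), filter (1 or 50 counts), unit (TPM + 0.1), transcripts, tool and libraries. Figures were drawn with matplotlib 3.10.9.

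The members, lists and tests were chosen with earlier results of these data known. All members were named. From each other list at most 3 genes were named: those past 2-fold in both lines for 1 shRNA or with an adjusted p under 0.1, otherwise those with the largest change. TUBB2A, GMDS, NQO2, BPHL, PSMG4, RIPK1, CTSG, ELANE, GZMB, PRTN3, GZMM, ITGAM, the markers beside the pairs and the genes DESeq2 called were named after their values were seen.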

Additional observations from a re-analysis of the deposited data

Results flagged for a closer look

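SERPINB13 had opposite signs in the 2 lines upon TP63 silencing (-2.29 in TE5 and 0.36 in KYSE140) and upon SOX2 silencing (-0.24 and 0.58), as log2 fold changes of 1 library against 1. With the TP63 shRNA, SERPINB5 was at 0.49 in TE5 and -0.15 in KYSE140, and SERPINB8 at -0.21 and 0.72. With 1 line-by-shRNA term in the edgeR fit, the KYSE140 value minus the TE5 value for TP63 silencing was 2.21 for SERPINB13 (edgeR adjusted p 5.68e-05), -0.75 for SERPINB5 (edgeR adjusted p 0.147) and 0.05 for SERPINB8 (edgeR adjusted p 1.0); for SOX2 silencing it was -0.50 for SERPINB13 (edgeR adjusted p 1.0), the opposite sign to the pairs. For SERPINB8 the sign in TE5 was the opposite on deposited TPM (0.62), so that its lines then had the same sign.

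Transcripts that could not be assigned to a gene stand next to those of members in the deposited files. ENST00000537185, beside SERPINB1, had 984.2 estimated counts in TE5 scramble cells and ENST00000335686, beside SERPINB6, had 1717.9. With them added, SERPINB1 was at 36.4 TPM there beside 23.2 without, and SERPINB6 at 115 TPM beside 92.9. With ENST00000537185 added, the SERPINB1 value for TP63 silencing in TE5 was 0.90 on the log2 scale, beside 0.87 without it, and that for SOX2 silencing in KYSE140 was 1.77 beside 1.10. With the transcript beside SERPINB6 added, its value for TP63 silencing in KYSE140 was 0.15 beside -0.12.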

How the results depend on the processing

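The members called between the lines depended little on the settings: the 6 lower members passed an edgeR or DESeq2 adjusted p of 0.1 under all 9 alternatives, and 0 members passed for TP63 or SOX2 silencing under any alternative run (adjusted p of 0.246 or more). SERPINB2 was the only higher member except that 2 were higher with no filter on low counts, with the CCAT1 library included, and without the scramble libraries. The log2 fold change of SERPINB3 between the lines was 0.26 without the scramble libraries, and that of SERPINB5 was 0.20 without the TP63 libraries. Upon TP63 silencing SERPINB6 was at 0.02 with unassigned transcripts beside members, SERPINB8 at -0.02 and SERPINB9 at -0.17 with no cell line block, and SERPINB9 at -0.01 in DESeq2; upon SOX2 silencing SERPINB7 was at -0.10 with no cell line block. The cause of these was not tested. The difference between lines, as 1 line-by-shRNA term in place of the pairs side by side, was -0.40 for SERPINB7 (TP63) and -0.50 for SERPINB13 (SOX2), beside 1.75 and 0.82 from the pairs; by construction that term also draws on the libraries of the other shRNA.

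Counts over all genes moved more. For TP63 silencing they were 174 lower and 46 higher in the reported fit, 1265 and 472 in DESeq2, 769 and 442 with no filter, and 0 and 0 both with no cell line block and with unassigned transcripts as features. For SOX2 silencing they were 29 and 5, then 419 and 205 in DESeq2, 250 and 140 with no filter, 0 and 0 with no block, 1 and 0 with unassigned transcripts as features, and 8 higher with the CCAT1 library included. At an unadjusted p under 0.05 the fit with no cell line block had 142 genes lower and 58 higher for TP63 and 75 and 40 for SOX2. With unassigned transcripts as features it had 1996 and 1340 for TP63.

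In the pairs of libraries, with at least 50 counts the members lower in TE5 were 1 (TP63), 0 (SOX2) and 0 (CCAT1), and the members higher in KYSE140 were 0 (TP63) and 2 (SOX2). With a pseudocount of 10, 1 member was lower upon TP63 silencing in TE5. Scaled by the total count alone, 2 members were higher upon TP63 silencing in each line and 1 was lower upon SOX2 silencing in KYSE140. No paired analysis was possible because each group holds 1 library and the replicate number is 1 throughout; cell line was the block in the joint fit. Leaving out a replicate within a group leaves no library, so shRNA levels were left out of the line comparison instead. Depth limits SERPINB3, SERPINB4 and SERPINB7, and SERPINB1 in KYSE140.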
